A study of Homo sapiens with 12 samples.

Results

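The mitochondrial ribosomal proteins are the nuclear-encoded proteins of the ribosome inside mitochondria. Their genes were taken as every gene in the count table whose symbol begins with MRPL (large subunit) or MRPS (small subunit) and a digit, with pseudogenes left out. This gave 72 genes of 13820, and all 72 passed the filter on low counts, as did 12602 genes of the table. By symbol, 44 belong to the large subunit and 27 to the small one. MRPS36 is counted apart, since its protein is now known as a component of the 2-oxoglutarate dehydrogenase complex and not of the ribosome. MRPS30 keeps its small-subunit symbol, although structures place its protein in the large subunit.

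The cells were Z-138, an established line of mantle cell lymphoma, a B cell cancer. They carried an shRNA against SMARCA4 or a control shRNA. SMARCA4 is an ATPase of the SWI/SNF complex, which moves nucleosomes and so changes which DNA is accessible. All cells were cultured with doxycycline, controls included. They were further given ibrutinib (3 µM) and venetoclax (3 µM), termed the drug here, or the solvent DMSO. Ibrutinib blocks the kinase BTK and venetoclax blocks the survival protein BCL2. The 12 libraries form 4 groups of 3: SMARCA4 shRNA with drug, control shRNA with drug, SMARCA4 shRNA with DMSO, and control shRNA with DMSO. The labels name 1 cell line and 1 SMARCA4 shRNA arm, so what SMARCA4 loss did and what the construct did cannot be told apart. Nothing in them says that the replicates came from separate cultures, and p-values measure only the spread between these libraries, which may be technical.

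The ribosome in mitochondria descends from a bacterial one and translates the few mRNAs of mitochondrial DNA, all of which encode membrane subunits of the respiratory chain and ATP synthase. Its 2 rRNAs come from mitochondrial DNA, while its proteins are made in the cytosol and imported. Many of these proteins have a bacterial counterpart, and others were gained in mitochondria. Mitochondrial translation sets how much respiratory chain a cell can build, and lymphoma cells differ in how far they rely on it.

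Libraries held 7279503 to 22528537 counts, and the deepest was SMARCA4 shRNA with DMSO, replicate 3. SMARCA4 itself averaged 175 ± 8.66 CPM under the SMARCA4 shRNA with drug, against 610 ± 28.2 CPM under the control shRNA with drug (SD, n = 3 each; CPM is a count relative to the TMM-scaled library size). With DMSO it averaged 170.0 ± 9.67 CPM, against 577 ± 21.6 CPM. The B cell markers CD79A, CD79B, PAX5 and MS4A1 had a summed level of 256 to 271 CPM with the SMARCA4 shRNA and drug, against 447 to 497 CPM in control cells with drug. With DMSO the sums were 233 to 243 CPM, against 401 to 419 CPM. Within these sums PAX5 differed little with drug, averaging 88.3 CPM with the SMARCA4 shRNA and 90.5 CPM with the control shRNA. In DMSO it averaged 70.3 CPM and 79.4 CPM. MS4A1, which encodes the surface protein CD20, averaged 73.0 CPM with the SMARCA4 shRNA in DMSO and 187 CPM with the control shRNA. CCND1, the cyclin gene that defines this lymphoma, averaged 3554 CPM and 4478 CPM in those groups, and 3586 CPM and 4457 CPM with drug. SOX11, a transcription factor gene typical of this lymphoma, averaged 633 CPM with the SMARCA4 shRNA in DMSO and 336 CPM with the control shRNA. With drug it averaged 648 CPM and 369 CPM. CD3G was the 1 of 5 T and NK cell markers measured, at 1.31 to 2.30 CPM in SMARCA4 shRNA libraries and 14.1 to 18.2 CPM in control libraries. COL1A1 was the 1 of 5 fibroblast and epithelial markers measured, at 14.2 to 15.1 CPM and 19.6 to 25.99 CPM. Values for 3 monocyte markers were not analysed here. The part of these shifts in the results below was not tested, and in bulk RNA fewer cells of a type and less RNA per cell cannot be told apart.

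The ribosomal protein transcripts were lower in total with the SMARCA4 shRNA, with and without drug. With drug, their summed level was 4926, 4840 and 4952 CPM in the SMARCA4 shRNA libraries, against 5482, 5313 and 5760 CPM in control libraries. In DMSO it was 4963, 4811 and 4746 CPM with the SMARCA4 shRNA, against 5456, 5418 and 5645 CPM with the control shRNA. All 3 SMARCA4 shRNA libraries lay below all 3 control libraries under both treatments. As a share of raw counts with no scaling, the sum took 0.505% ± 0.0112 with the SMARCA4 shRNA and drug, against 0.537% ± 0.0159 in control cells with drug (SD, n = 3 each). In DMSO the shares were 0.486% ± 0.0103 and 0.545% ± 0.0110. With drug the shares ranged from 0.494% to 0.516% and from 0.520% to 0.552%, closer together than the scaled levels. Cytosolic 18S and 28S rRNA took 8.36% ± 1.01 of counts in SMARCA4 shRNA libraries with drug, against 10.6% ± 0.330 in control libraries with drug. With DMSO these were 10.5% ± 0.523 and 9.15% ± 0.308. The part of these rRNA shares in the results was not tested.

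**Figure D1:**
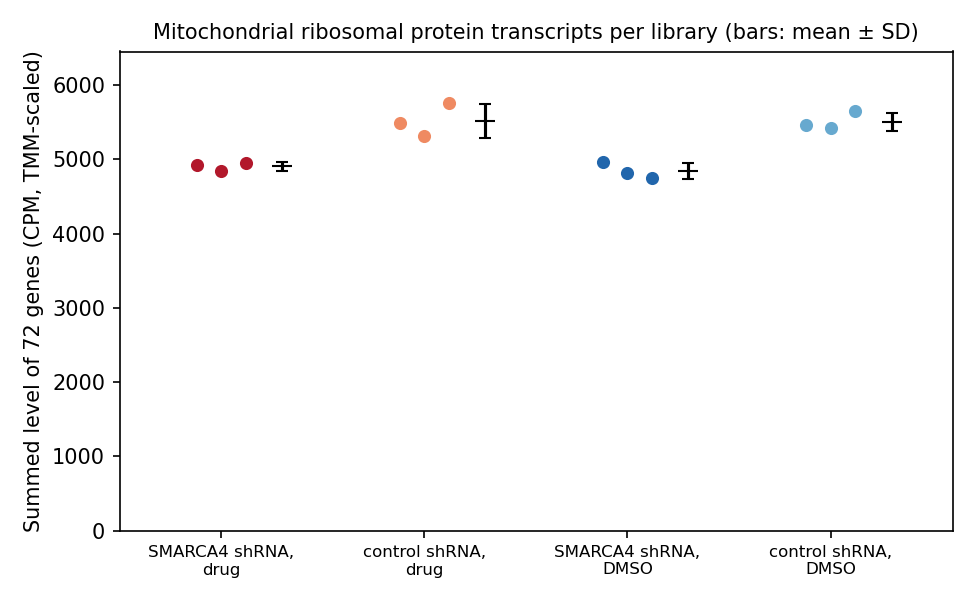
Summed level of the 72 mitochondrial ribosomal protein genes in each of the 12 libraries (CPM, axis from 0), with the mean and SD of 3 libraries per group. The SMARCA4 shRNA libraries lie between 4746 and 4963 CPM, and all control libraries lie at 5313 CPM or above.

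Single genes ranged from 3.51 to 254 CPM on average over the libraries. Most, 52, lay between 10 and 100 CPM, 15 lay above and 5 below, and the smallest count in any library was 9. These are levels of 3' tags, of which a transcript gives about 1, and they were not divided by transcript length.

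With drug, 24 of the 72 genes fell in SMARCA4 shRNA cells relative to control cells, 0 rose and 48 did not pass (edgeR quasi-likelihood test, Benjamini-Hochberg adjusted over all 12602 genes, threshold 0.05). Over all genes tested, 16.3% fell and 14.8% rose. In DMSO, 31 of the 72 fell, 0 rose and 41 did not pass, against 16.2% lower and 15.1% higher over all genes. At an unadjusted p under 0.05, 1 gene with drug and 2 in DMSO were higher. DESeq2 called 22 lower with drug and 26 in DMSO, limma-voom called 23 and 32, and neither called a gene higher. For DESeq2 and limma-voom the share of all genes called was not tallied. The shifts were small. The median log2 fold change was -0.13 with drug and -0.14 in DMSO, where the medians of all genes were 0.00. Below zero lay 79.2% of the 72 genes with drug and 81.9% in DMSO, against 49.8% and 49.5% of all genes.

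Ranges were compared as well. All 3 SMARCA4 shRNA libraries lay below all 3 control libraries for 28 genes with drug (21.2% of all genes) and for 35 in DMSO (21.5% of all genes). They lay above for 2 genes with drug (19.8% of all genes) and for 2 in DMSO (21.4% of all genes).

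The counts of lower genes depended on single libraries. In DMSO, 17 genes were lower without SMARCA4kd_DMSO replicate 3, the deepest library, and 18 without control_DMSO replicate 3. With drug, the count was 16 without SMARCA4kd_IbrVen replicate 1, and 21 without control_IbrVen replicate 1, whose column named no treatment. With library totals as the only scaling, 13 genes were lower and 2 higher with drug, and 25 lower and 0 higher in DMSO. The median of all genes was then 0.08 with drug and 0.02 in DMSO. The share of all genes called in these fits was not tallied. The changes in count therefore cannot be read as particular to these genes.

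**Figure D2:**
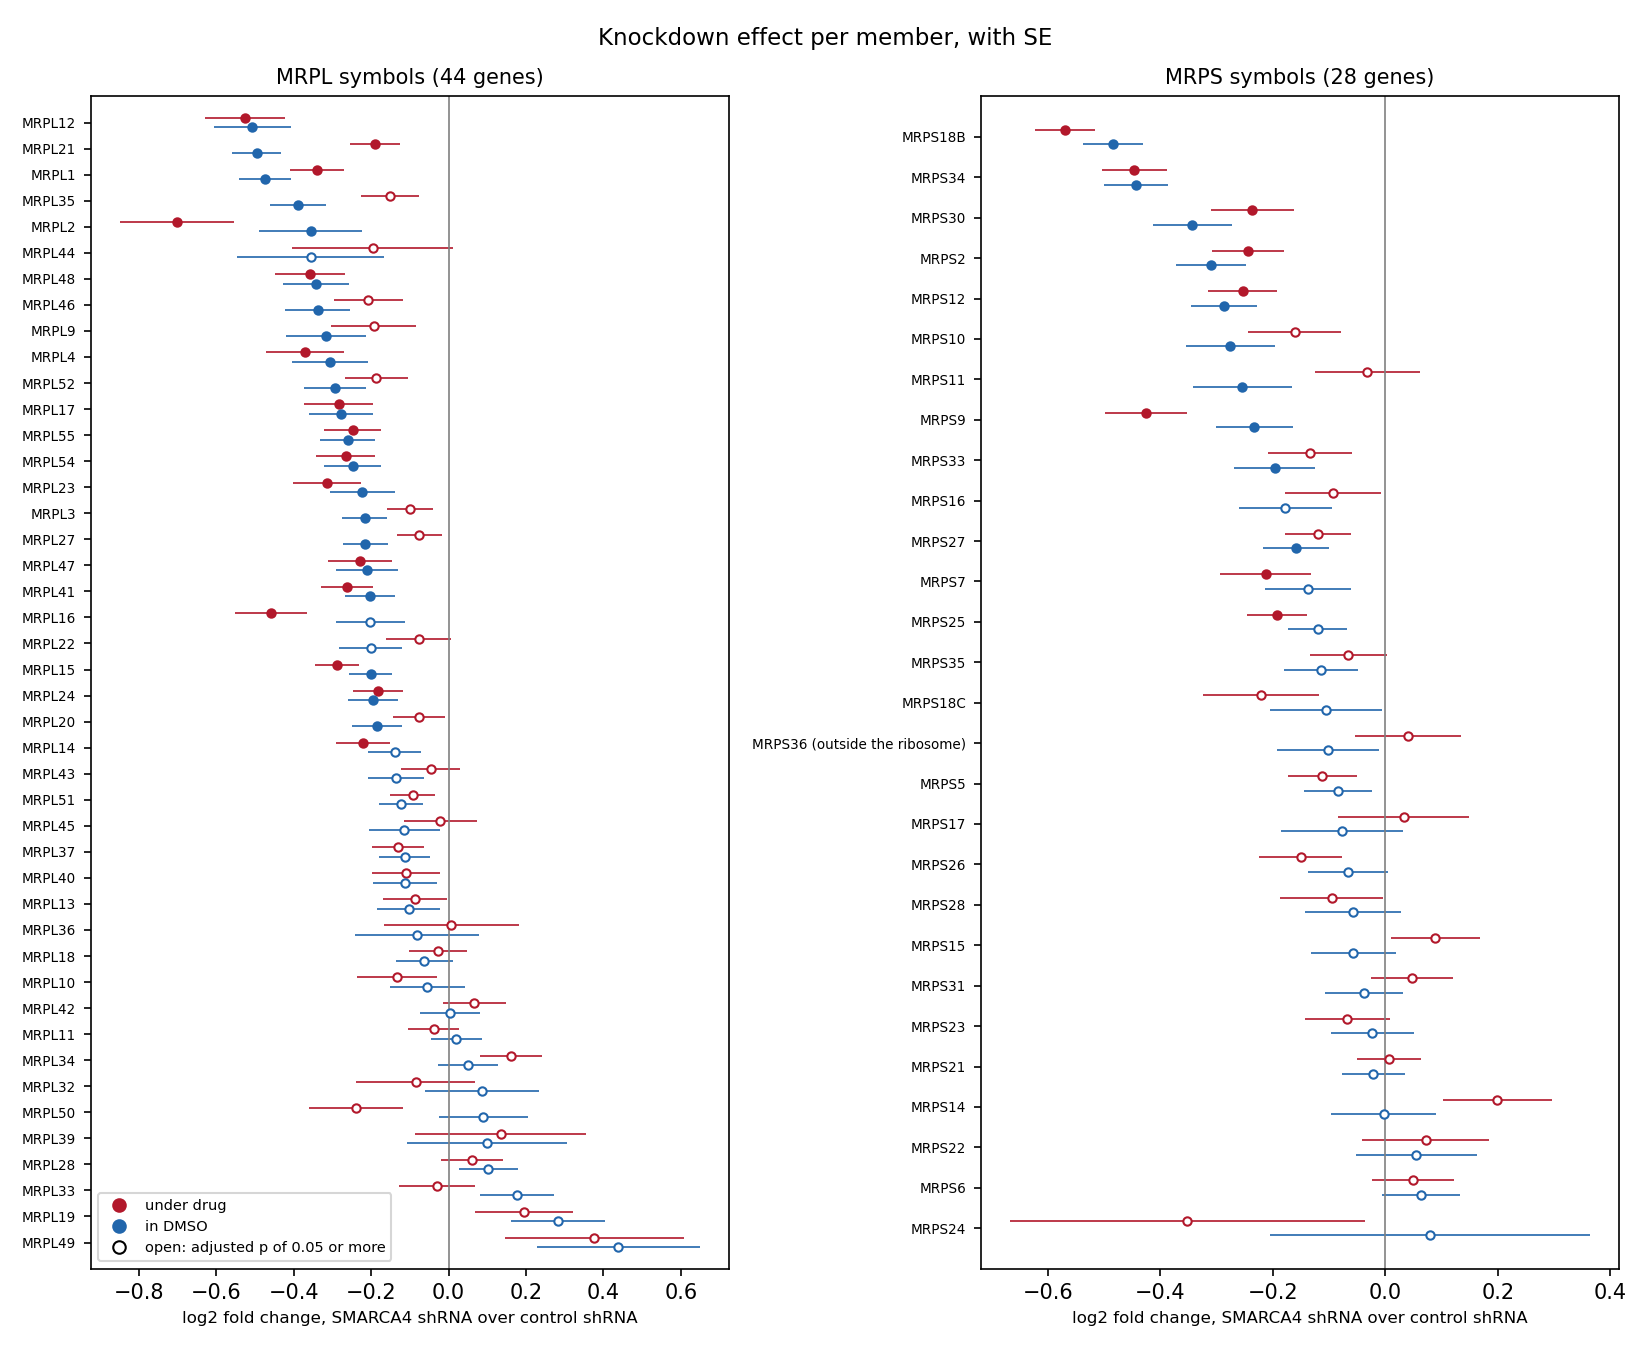
Log2 fold change of each of the 72 genes, SMARCA4 shRNA over control shRNA, with drug (red) and in DMSO (blue). Bars are SE, filled points passed the adjusted threshold of 0.05 and open points did not. All filled points lie below zero, and values run from -0.70 to 0.44.

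The comparisons with drug and in DMSO share no library. In both, 20 genes fell, which is 83.3% of those lower with drug and 64.5% of those lower in DMSO. Over all 12602 genes tested, 2059 fell with drug, 2041 fell in DMSO and 1512 fell in both. The 20 are MRPL1, MRPL2, MRPL4, MRPL12, MRPL15, MRPL17, MRPL21, MRPL23, MRPL24, MRPL41, MRPL47, MRPL48, MRPL54, MRPL55, MRPS2, MRPS9, MRPS12, MRPS18B, MRPS30 and MRPS34. For 19 of them the libraries did not overlap in either comparison. MRPL24 overlapped with drug. The same libraries gave the calls, so this lack of overlap adds no separate support. Another 4 genes (MRPL14, MRPL16, MRPS7 and MRPS25) passed only with drug, 11 only in DMSO, and 37 in neither, with no test of a difference between treatments passing for any of them. Across the 72 genes, the fold changes of both comparisons had a Pearson r of 0.741 and a Spearman rho of 0.733, as a description over genes that share libraries within each comparison.

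Of the 20 genes, 6 passed in both comparisons under every one of 20 alternative settings: MRPL1, MRPL12, MRPL48, MRPS12, MRPS18B and MRPS34. The settings reuse the same libraries, and some leave out only a library outside the comparison, so they are not separate support. The promoters of these 6 genes include some with and some without the short sequence matches searched for near the start site. The letters searched, on both strands, were CCGGAAG for ETS factors, AAGATGGCG for YY1, GCGCATGCG for NRF1, CACGTG for the E-box and GGGCGG for SP factors. The ETS and YY1 letters can share the bases AAG. Each promoter runs from 250 bases before to 50 bases after the start in RefSeq, GRCh38.p14, and 63 of the 72 genes had an entry. The following 4, read 5′ to 3′ on the gene's strand, have capitals at ETS and YY1 matches. MRPS18B is at chr6:30617590-30617889 (plus strand), MRPS34 at chr16:1773085-1773384 (minus), MRPL48 at chr11:73787624-73787923 (plus) and MRPL12 at chr17:81703117-81703416 (plus).
MRPS18B: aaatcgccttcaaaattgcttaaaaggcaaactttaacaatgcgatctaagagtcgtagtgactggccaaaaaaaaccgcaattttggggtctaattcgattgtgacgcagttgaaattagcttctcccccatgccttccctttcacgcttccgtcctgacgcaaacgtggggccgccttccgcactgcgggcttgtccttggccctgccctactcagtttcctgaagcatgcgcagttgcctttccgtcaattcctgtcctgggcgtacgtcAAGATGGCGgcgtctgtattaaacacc
MRPS34: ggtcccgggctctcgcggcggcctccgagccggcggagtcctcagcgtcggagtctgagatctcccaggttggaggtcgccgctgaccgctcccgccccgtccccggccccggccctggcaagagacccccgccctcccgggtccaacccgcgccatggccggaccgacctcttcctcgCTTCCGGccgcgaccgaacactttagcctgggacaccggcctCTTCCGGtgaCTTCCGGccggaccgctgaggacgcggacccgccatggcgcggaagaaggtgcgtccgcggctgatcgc
MRPL48: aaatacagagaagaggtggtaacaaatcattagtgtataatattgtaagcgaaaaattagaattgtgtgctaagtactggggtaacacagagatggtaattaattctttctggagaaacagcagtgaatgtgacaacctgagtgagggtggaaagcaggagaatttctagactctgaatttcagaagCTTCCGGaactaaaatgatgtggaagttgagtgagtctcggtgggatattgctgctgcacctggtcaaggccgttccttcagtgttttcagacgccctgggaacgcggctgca
MRPL12: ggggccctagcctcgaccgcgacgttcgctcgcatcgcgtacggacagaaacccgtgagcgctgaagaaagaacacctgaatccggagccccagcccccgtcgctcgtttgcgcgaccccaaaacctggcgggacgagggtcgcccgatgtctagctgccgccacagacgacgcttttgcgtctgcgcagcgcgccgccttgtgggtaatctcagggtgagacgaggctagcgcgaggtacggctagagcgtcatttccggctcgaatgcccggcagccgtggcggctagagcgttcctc

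MRPS34 held 3 ETS matches, MRPL48 held 1, MRPS18B held 1 YY1 match just inside the transcript, and MRPL12 held none of ETS, YY1 or NRF1. Among the 63 genes, 25 held the ETS letters (39.7%, against 24.1% of 8469 tested genes with an entry and 12.2% of all 27305 genes in the promoter table). The YY1 letters were in 11 (17.5%, against 5.15% and 2.14%). NRF1 letters were in 3 (4.76%, against 4.69% and 2.34%), the E-box in 9 (14.3%, against 13.1% and 8.77%) and SP letters in 38 (60.3%, against 77.7% and 48.3%). Of the genes lower in both comparisons 16 had an entry, and 5 held ETS (31.2%) and 2 held YY1 letters (12.5%). Of the genes that passed in neither, 33 had an entry, and 13 held ETS (39.4%) and 6 held YY1 letters (18.2%). Of the genes lower in DMSO alone, 10 had an entry, and 6 held ETS and 3 held YY1 letters.

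MRPS18B (ENSG00000204568) encodes a small-subunit protein related to the bacterial S18 protein. With drug it had 198, 208 and 212 CPM in SMARCA4 shRNA libraries, against 299, 295 and 325 CPM in control libraries. In DMSO it had 217, 213 and 201 CPM, against 293, 291 and 298 CPM. Every SMARCA4 shRNA library was lower than every control library by a wide gap. MRPS18B fell by 0.57 on the log2 scale with drug (SE 0.05, edgeR adjusted p = 6.41e-10) and by 0.48 in DMSO (SE 0.05, adjusted p = 1.34e-08), the smallest adjusted p of the family in both comparisons.

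MRPS34 (ENSG00000074071), a mitochondria-specific protein of the small subunit that is mutated in a form of Leigh syndrome, had 129, 120.4 and 129 CPM in SMARCA4 shRNA libraries with drug, against 172, 168 and 176 CPM in control libraries. In DMSO the levels were 129, 128 and 119 CPM, against 165, 166 and 179 CPM. The groups lay far apart under both treatments. It fell by 0.45 with drug (SE 0.06, edgeR adjusted p = 3.5e-07) and by 0.44 in DMSO (SE 0.06, adjusted p = 2.43e-07).

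MRPL12 (ENSG00000262814) forms the stalk that recruits translation factors, and its protein has also been reported to bind the mitochondrial RNA polymerase. It had 114, 128 and 130 CPM in SMARCA4 shRNA libraries with drug, against 163, 143 and 229 CPM in control libraries. Levels in DMSO were 147, 123 and 127 CPM, against 173, 185 and 205 CPM. The groups did not overlap, but control replicate 3 with drug lay well above the other two. MRPL12 fell by 0.53 with drug (SE 0.10, edgeR adjusted p = 0.000169) and by 0.51 in DMSO (SE 0.10, adjusted p = 0.000178). Without control_IbrVen replicate 3 the value with drug was -0.30. In GENCODE 29 its exons overlap another gene, AC139530.2, on the same strand.

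MRPL1 (ENSG00000169288), the counterpart of the bacterial protein at the stalk where spent tRNA leaves, had 62.0, 61.4 and 70.9 CPM in SMARCA4 shRNA libraries with drug, against 84.3, 79.3 and 82.6 CPM in control libraries. Levels in DMSO were 61.1, 61.2 and 56.5 CPM, against 80.7, 81.9 and 84.7 CPM. Control libraries were alike under both treatments, and all stood above the SMARCA4 shRNA libraries. MRPL1 fell by 0.34 with drug (SE 0.07, edgeR adjusted p = 0.000264) and by 0.47 in DMSO (SE 0.07, adjusted p = 1.44e-06).

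MRPL48 (ENSG00000175581), a mitochondria-specific protein of the large subunit, had 37.1, 30.8 and 31.7 CPM in SMARCA4 shRNA libraries with drug, against 39.5, 39.7 and 48.1 CPM in control libraries. In DMSO it had 34.8, 32.7 and 31.8 CPM, against 43.2, 42.3 and 39.6 CPM. The nearest libraries of the groups were close, yet none overlapped. It fell by 0.36 with drug (SE 0.09, edgeR adjusted p = 0.0027) and by 0.34 in DMSO (SE 0.09, adjusted p = 0.00244).

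MRPS12 (ENSG00000128626), whose bacterial counterpart lies at the decoding centre and is the classic site of streptomycin resistance, had 107, 114 and 106 CPM in SMARCA4 shRNA libraries with drug, against 127, 124.5 and 138.2 CPM in control libraries. In DMSO it had 110.4, 117 and 106 CPM, against 134, 137.8 and 134 CPM. The gap between groups was narrower than for MRPS18B but was present under both treatments. MRPS12 fell by 0.25 with drug (SE 0.06, edgeR adjusted p = 0.00159) and by 0.29 in DMSO (SE 0.06, adjusted p = 0.000294). Its exons overlap those of SARS2 on the opposite strand, and the strand setting of the counting is not given in the sources used here.

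**Figure D3:**
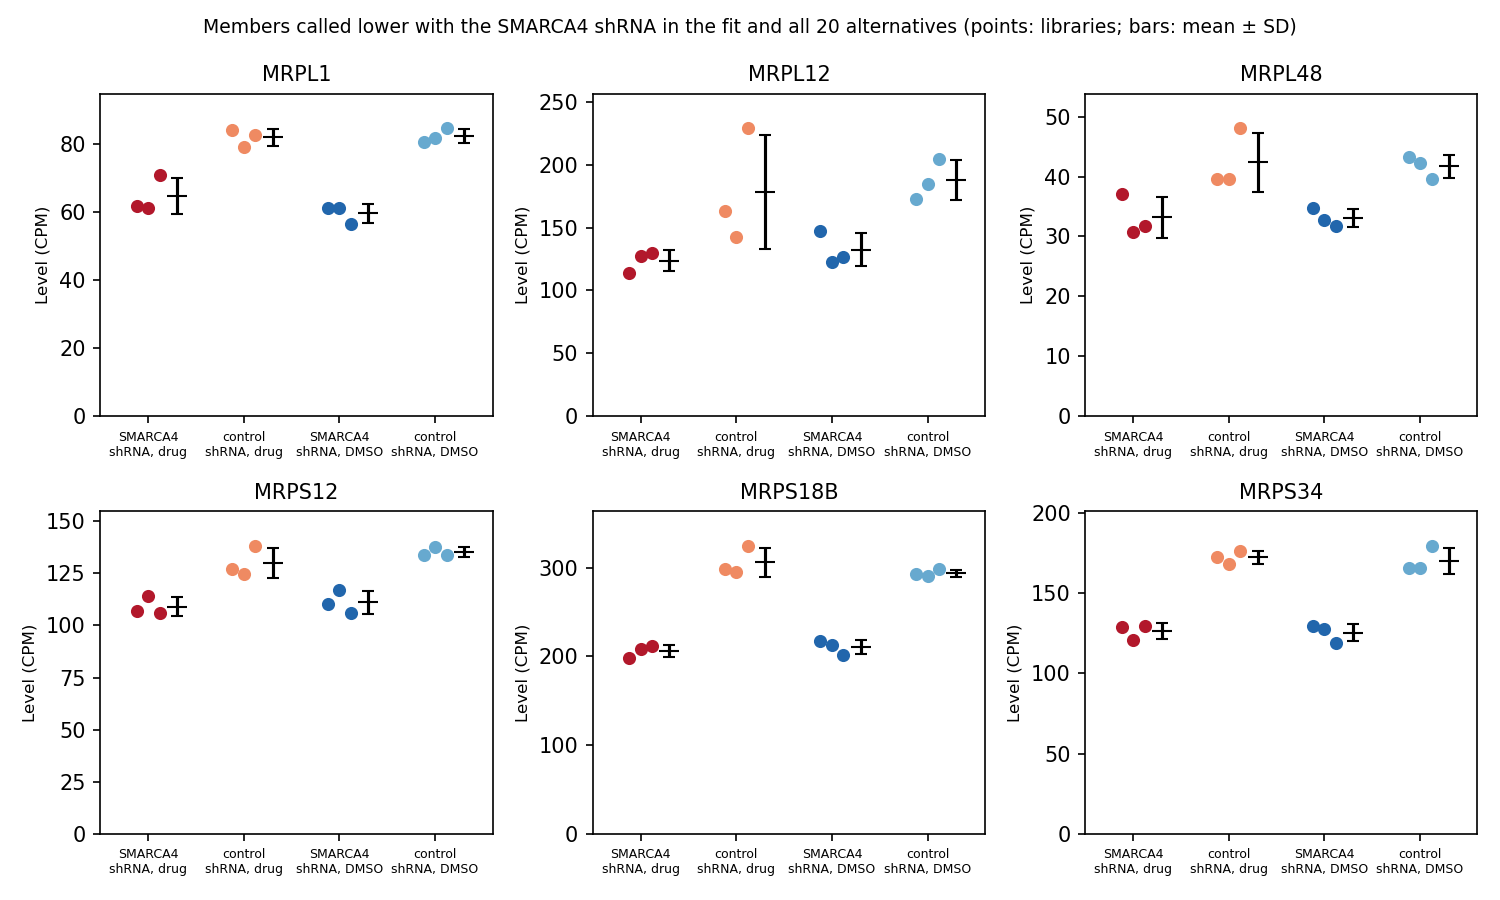
Levels of the 6 genes that passed in both comparisons and all 20 alternatives (CPM, axes from 0), by library, with mean and SD of 3. In each panel the SMARCA4 shRNA libraries lie below the control libraries of the same treatment.

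Of the genes with a bacterial counterpart, 10 of 28 of the large subunit and 4 of 17 of the small one fell in both comparisons. Of the genes listed as mitochondria-specific, 4 of 16 of the large and 2 of 10 of the small subunit did. Class and subunit followed the symbol number here. MRPL55 was thus counted as mitochondria-specific, which may not hold for its protein. MRPS30 was counted in the small subunit, although structures place its protein in the large one. Genes with a bacterial counterpart are the larger class in each subunit, so their larger numbers among the genes that fell do not alone set them apart. With drug, 16 of 44 large-subunit genes and 8 of 27 small-subunit genes fell, with medians of -0.14 and -0.12 on the log2 scale. In DMSO, 21 of 44 and 10 of 27 fell, with medians of -0.20 and -0.11. No test of a difference between the classes was made.

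Around the catalytic core of the large subunit, MRPL2 (ENSG00000112651), the counterpart of a bacterial protein next to the peptidyl transferase centre, had 10.4, 7.52 and 10.8 CPM in SMARCA4 shRNA libraries with drug, against 16.3, 17.3 and 13.1 CPM in control libraries. Levels in DMSO were 12.8, 12.1 and 10.8 CPM, against 13.5, 16.7 and 14.9 CPM. It fell by 0.70 with drug (SE 0.15, edgeR adjusted p = 0.000397), the steepest of the family, on 63 to 243 counts a library. In DMSO it fell by 0.36 (SE 0.13, adjusted p = 0.0414), a call that was lost without SMARCA4kd_DMSO replicate 3 (-0.26), control_DMSO replicate 2 (-0.28), control_DMSO replicate 3 (-0.35), SMARCA4kd_DMSO replicate 2 (-0.37) or SMARCA4kd_IbrVen replicate 1 (-0.35). It was also lost with DESeq2 (-0.35, adjusted p = 0.0876) and with library totals (-0.34, adjusted p = 0.0631). Exons of MRPL2 overlap those of KLC4 on the opposite strand.

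MRPL16 (ENSG00000166902), also a core protein near that centre, had 56.2, 46.6 and 41.5 CPM with the SMARCA4 shRNA and drug, against 73.4, 63.3 and 60.4 CPM in control cells with drug. It fell by 0.46 there (SE 0.09, edgeR adjusted p = 0.000255). In DMSO it had 50.4, 51.0 and 51.6 CPM, against 52.9, 58.1 and 65.7 CPM, a log2 fold change of -0.20 that did not pass (adjusted p = 0.0865). MRPL15 (ENSG00000137547), a protein of the large-subunit core, fell by 0.29 with drug (SE 0.06, adjusted p = 0.000203) and by 0.20 in DMSO (SE 0.06, adjusted p = 0.00591). Its call in DMSO was lost without SMARCA4kd_DMSO replicate 3 (-0.17, adjusted p = 0.0601).

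MRPL21 (ENSG00000197345) and MRPL35 (ENSG00000132313), both with bacterial counterparts, had their larger fold changes in DMSO. MRPL21 had 92.7, 80.5 and 93.8 CPM with the SMARCA4 shRNA and drug, against 98.9, 102 and 104 CPM in control cells with drug, and fell by 0.19 (SE 0.07, edgeR adjusted p = 0.0256). Levels in DMSO were 82.1, 76.2 and 78.6 CPM, against 109, 109 and 116 CPM, and fell by 0.50 (SE 0.06, adjusted p = 2.51e-07). The call with drug was lost without SMARCA4kd_IbrVen replicate 2 (-0.12), control_IbrVen replicate 2 (-0.19) or control_IbrVen replicate 3 (-0.17), and with library totals (-0.11).

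MRPL35 had 53.6, 50.5 and 50.2 CPM with the SMARCA4 shRNA and drug, against 57.2, 55.2 and 58.6 CPM in control cells with drug. Its log2 fold change of -0.15 there did not pass (edgeR adjusted p = 0.134), although the groups did not overlap. In DMSO its levels were 45.0, 48.1 and 48.9 CPM, against 57.3, 60.6 and 68.8 CPM, and it fell by 0.39 (SE 0.07, adjusted p = 8.82e-05). MRPL46 (ENSG00000259494), a mitochondria-specific protein, fell by 0.34 in DMSO (SE 0.08, adjusted p = 0.00209), while its change with drug was -0.21 (adjusted p = 0.0752).

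In the small subunit, MRPS9 (ENSG00000135972), the counterpart of a bacterial protein that contacts the tRNA held in the ribosome, had 46.5, 46.0 and 45.7 CPM with the SMARCA4 shRNA and drug, against 65.6, 61.4 and 58.4 CPM in control cells with drug. It fell by 0.43 (SE 0.07, edgeR adjusted p = 2.54e-05). In DMSO it had 54.6, 51.0 and 51.8 CPM, against 61.6, 64.7 and 58.5 CPM, and fell by 0.23 (SE 0.07, adjusted p = 0.00866). That call was lost without SMARCA4kd_DMSO replicate 3 (-0.21) or control_DMSO replicate 2 (-0.20).

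MRPS2 (ENSG00000122140), with a bacterial counterpart, fell by 0.24 with drug (SE 0.06, edgeR adjusted p = 0.00382) and by 0.31 in DMSO (SE 0.06, adjusted p = 0.000223). MRPS30 (ENSG00000112996), mitochondria-specific, fell by 0.24 with drug (SE 0.07, adjusted p = 0.014) and by 0.34 in DMSO (SE 0.07, adjusted p = 0.000287). The call of MRPS30 with drug was lost without SMARCA4kd_IbrVen replicate 1 (-0.22), without control_IbrVen replicate 1 (-0.22) and with library totals (-0.16). With library totals MRPS2 missed the threshold with drug as well (-0.16, adjusted p = 0.0542).

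The other 8 genes that fell in both comparisons belong to the large subunit: MRPL4, MRPL17, MRPL23, MRPL24, MRPL41, MRPL47, MRPL54 and MRPL55. MRPL41, MRPL54 and MRPL55 were listed as mitochondria-specific and the others as having bacterial counterparts. With drug the log2 fold changes of the 8 genes ran from -0.37 (MRPL4) to -0.18 (MRPL24), and in DMSO from -0.31 (MRPL4) to -0.19 (MRPL24). Each of them lost its call in at least 1 of the comparisons under an alternative. The DMSO call was lost in 11 of the 20 alternatives for MRPL23 and in 10 for MRPL47, whose call with drug was lost in 6.

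The 11 genes that passed in DMSO and not with drug were MRPL3, MRPL9, MRPL20, MRPL27, MRPL35, MRPL46, MRPL52, MRPS10, MRPS11, MRPS27 and MRPS33. Their values with drug, none of which passed, were also all below zero, from -0.21 (MRPL46) to -0.03 (MRPS11), beside -0.39 (MRPL35) to -0.16 (MRPS27) in DMSO. The DMSO call was lost in 8 of the 20 alternatives for MRPS27, 7 for MRPS33, 5 for MRPL20 and 4 for MRPS11. Likewise, MRPL14, MRPL16, MRPS7 and MRPS25 ran from -0.46 (MRPL16) to -0.19 (MRPS25) with drug, and all 4 were below zero in DMSO. The call of MRPS7 was lost in 16 of the 20 alternatives, among them limma-voom (-0.21, adjusted p = 0.0532) and DESeq2 (-0.21, adjusted p = 0.101). That of MRPL14 was lost without SMARCA4kd_IbrVen replicate 1 (-0.19) or replicate 2 (-0.19), without control_IbrVen replicate 3 (-0.17) and with library totals (-0.14). That of MRPS25 was lost with library totals (-0.11, edgeR adjusted p = 0.111). The 37 genes that passed in neither ran from -0.35 (MRPS24) to 0.38 (MRPL49) with drug and from -0.36 (MRPL44) to 0.44 (MRPL49) in DMSO.

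The paralogs of MRPS18B could be followed in part. MRPS18C (ENSG00000163319) had 21.4, 18.3 and 19.8 CPM with the SMARCA4 shRNA and drug, against 24.1, 23.4 and 21.6 CPM in control cells with drug, a log2 fold change of -0.22 that did not pass (edgeR adjusted p = 0.104). In DMSO its change was -0.11 (adjusted p = 0.457) and the groups overlapped. MRPS18A has no values under that symbol and was not analysed here. MRPS36, the protein outside the ribosome, changed by 0.04 with drug (adjusted p = 0.787) and -0.10 in DMSO (adjusted p = 0.428). MRPL36 changed by 0.01 (adjusted p = 0.981) and -0.08 (adjusted p = 0.742), on 57 to 199 counts a library.

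A few genes leaned the other way without passing. MRPL49 was at 4.59, 4.18 and 3.95 CPM with the SMARCA4 shRNA and drug, against 3.50, 3.36 and 2.90 CPM in control cells with drug. In DMSO it was at 4.70, 4.67 and 4.48 CPM, against 2.90, 2.90 and 4.42 CPM. The groups did not overlap in either, but with 24 to 101 counts a library neither 0.38 (edgeR adjusted p = 0.232) nor 0.44 (adjusted p = 0.117) passed. Without control_DMSO replicate 3 the value in DMSO was 0.67 and did pass (edgeR adjusted p = 0.0336). Exons of MRPL49 overlap those of FAU and SYVN1 on the opposite strand. MRPL49 was singled out after its values were seen, as the highest fold change of the family in both comparisons. In all, 8 of the 72 genes were above zero in both comparisons, 52 below zero in both and 12 split.

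Reads from overlapping genes or pseudogenes could affect single values, but no reads were examined. Any exon overlap was counted, wherever it lay in the transcript. Of the 70 genes matched by identifier to GENCODE 29, exons overlapped another gene on the same strand for 13 and on the opposite strand for 27. Of all 72 genes, 30 have a pseudogene named after them. MRPS18B, MRPS34, MRPL1 and MRPL48 overlap no gene on either strand, but 2 pseudogenes are named after MRPS18B and 1 after MRPL48.

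Other proteins of the mitochondrial ribosome have symbols outside the MRP series. Of 6 such genes tested, 2 fell with drug and 2 in DMSO, the same genes, and 0 rose. Their median log2 fold change was -0.10 with drug and -0.06 in DMSO, where all genes have 0.00, as for the lists that follow. Of all genes tested, 16.3% fell and 14.8% rose with drug, and 16.2% fell and 15.1% rose in DMSO, to be read beside each list's counts. ICT1, the older symbol of MRPL58, encodes a large-subunit protein that can free stalled peptides. It fell by 0.54 with drug (SE 0.08, edgeR adjusted p = 2.07e-06) and by 0.53 in DMSO (SE 0.07, adjusted p = 1.29e-06). AURKAIP1, a small-subunit protein, fell by 0.26 with drug (SE 0.06, adjusted p = 0.00048) and by 0.21 in DMSO (SE 0.05, adjusted p = 0.00315). DAP3, PTCD3, CHCHD1 and GADD45GIP1 passed in neither comparison.

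Among factors that assemble the ribosome or modify its rRNA, 3 of 23 fell and 0 rose with drug, and 5 fell and 1 rose in DMSO, with medians of -0.12 and -0.10. MRM1 and FTSJ2, which methylate the large mitochondrial rRNA, fell in both. MRM1 fell by 0.61 with drug (SE 0.10, edgeR adjusted p = 1.58e-05) and by 0.42 in DMSO (SE 0.10, adjusted p = 0.000989). FTSJ2 fell by 0.46 with drug (SE 0.07, adjusted p = 2.38e-06) and by 0.34 in DMSO (SE 0.06, adjusted p = 9.07e-05). NOA1, a GTPase of small-subunit assembly, rose by 0.39 in DMSO (SE 0.10, adjusted p = 0.00395).

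Of 16 mitochondrial translation factors, 5 fell with drug, 7 fell in DMSO, and 1 rose in each, with medians of -0.10 with drug and -0.22 in DMSO. GFM1, the elongation factor that moves the ribosome along the mRNA, fell by 0.45 with drug (SE 0.08, edgeR adjusted p = 3.76e-05) and by 0.54 in DMSO (SE 0.07, adjusted p = 9.47e-07). MTIF2, the initiation factor, fell by 0.33 with drug (SE 0.07, adjusted p = 0.000592) and by 0.32 in DMSO (SE 0.07, adjusted p = 0.000444). C12orf65, a rescue factor of the release factor family, rose by 0.92 with drug (SE 0.06, adjusted p = 3.7e-14) and by 1.09 in DMSO (SE 0.06, adjusted p = 6.12e-16).

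Of 18 genes of mitochondrial transcription and RNA processing, 6 fell with drug and 4 in DMSO, and 0 rose, with medians of -0.09 and -0.10. TFAM, which packages mitochondrial DNA and starts its transcription, fell by 0.29 with drug (SE 0.06, edgeR adjusted p = 0.000511) and by 0.39 in DMSO (SE 0.06, adjusted p = 8.7e-06). ELAC2, which trims mitochondrial tRNA ends, fell by 0.32 with drug (SE 0.08, adjusted p = 0.00201) and by 0.44 in DMSO (SE 0.07, adjusted p = 2.03e-05).

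RNAs made from mitochondrial DNA were measured too, with the limit that a library primed on poly(A) reads them unevenly. Of 13 mRNAs, 6 fell with drug, 4 fell in DMSO and 0 rose, with medians of -0.20 and -0.07. MT-ND6 fell by 0.86 with drug (SE 0.06, edgeR adjusted p = 5.39e-13) and by 0.63 in DMSO (SE 0.06, adjusted p = 4.07e-10). The small-subunit rRNA, MT-RNR1, fell by 0.47 with drug (SE 0.06, adjusted p = 7.46e-07) and by 0.33 in DMSO (SE 0.06, adjusted p = 0.000148). The large-subunit rRNA, MT-RNR2, changed by 0.00 in DMSO (adjusted p = 0.987). With drug it fell by 0.16 (SE 0.05, adjusted p = 0.014), a call lost without SMARCA4kd_IbrVen replicate 1 (-0.10), without control_IbrVen replicate 2 (-0.13), with library totals (-0.08) and in a fit of those 2 groups alone (-0.16, adjusted p = 0.0737).

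Proteins of the cytosolic ribosome, which translates nuclear mRNAs, leaned the other way. Of 79 genes, 28 rose and 5 fell with drug, and 19 rose and 1 fell in DMSO, with median log2 fold changes of 0.09 and 0.06. Below zero lay 27.8% with drug and 29.1% in DMSO. With library totals, 46 rose and 2 fell with drug, and 28 rose and 1 fell in DMSO. Their medians were then 0.17 with drug and 0.08 in DMSO, where the medians of all genes had moved to 0.08 and 0.02. The share of all genes called under that scaling was not tallied.

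**Figure D4:**
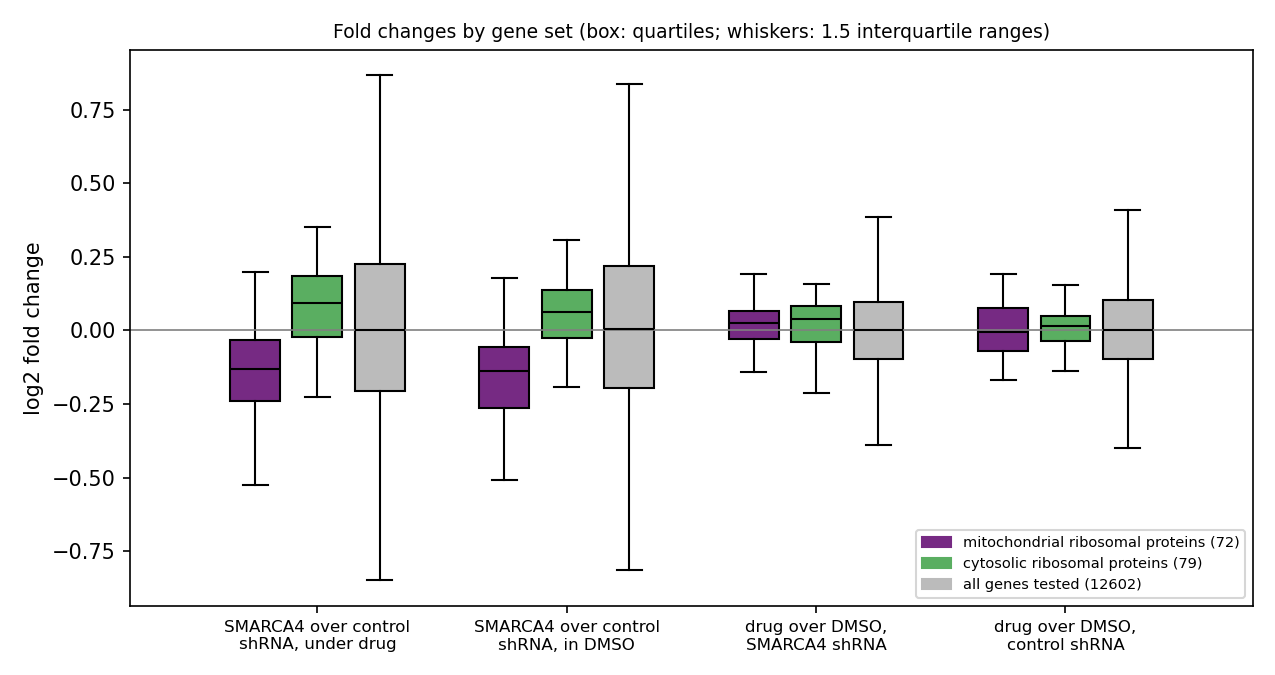
Log2 fold changes of the 72 mitochondrial ribosomal protein genes, 79 cytosolic ribosomal protein genes and all 12602 genes tested, in the comparisons of shRNAs and of drug with DMSO (boxes are quartiles, whiskers reach 1.5 interquartile ranges). The mitochondrial set has medians of -0.13 and -0.14 between shRNAs, and 0.02 and -0.01 between drug and DMSO.

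Drug was next compared with DMSO within each shRNA, which asks whether ibrutinib plus venetoclax alters these genes. In SMARCA4 shRNA cells 0 of the 72 genes passed in edgeR, DESeq2 or limma-voom, where 1.29% of all genes passed in edgeR (0.738% higher and 0.548% lower). Libraries did not overlap for 5 genes that were higher with drug (7.76% of all genes) and 2 that were lower (7.45% of all genes). At an unadjusted p under 0.05 there were 5 genes, 3 of them higher. The smallest p-values belonged to MRPL52 at 0.22 on the log2 scale (edgeR adjusted p = 0.271; 0.09 without SMARCA4kd_IbrVen replicate 3), MRPL21 at 0.17 (adjusted p = 0.279) and MRPS9 at -0.19 (adjusted p = 0.289). The median fold change was 0.02, and single genes ran from -0.35 to 0.22.

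In control cells 0 of the 72 genes passed in edgeR, DESeq2 or limma-voom, again where 1.29% of all genes passed in edgeR (0.738% higher and 0.555% lower). Libraries did not overlap for 4 genes that were higher with drug (7.38% of all genes) and 2 that were lower (7.18% of all genes). At an unadjusted p under 0.05 there were 2, MRPL43 at -0.17 (edgeR adjusted p = 0.423) and MRPL21 at -0.13 (adjusted p = 0.486). MRPS25 came next at 0.10 (adjusted p = 0.568). Without control_IbrVen replicate 3 alone, MRPL12 was called lower in control cells with drug (-0.30, adjusted p = 0.0487). The median fold change was -0.01, and single genes ran from -0.17 to 0.19.

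How large a drug effect these data leave possible can be read from the intervals. For the 65 genes at or above 20 CPM, all 95% intervals lay between -0.33 and 0.38 in SMARCA4 shRNA cells and between -0.34 and 0.47 in control cells. Over all 72 genes they lay between -0.96 and 0.47 and between -0.54 and 0.70. For MRPS18B the change was -0.03 (edgeR adjusted p = 0.941) in SMARCA4 shRNA cells and 0.06 (adjusted p = 0.795) in control cells. MRPL12 changed by -0.09 (adjusted p = 0.852) and -0.07 (adjusted p = 0.890), and MRPS12 by -0.02 (adjusted p = 0.962) and -0.05 (adjusted p = 0.844). MRPS18C changed by 0.05 (adjusted p = 0.933) and 0.17 (adjusted p = 0.644), MRPS36 by 0.12 (adjusted p = 0.716) and -0.02 (adjusted p = 0.973), and MRPL36 by -0.01 (adjusted p = 0.999) and -0.10 (adjusted p = 0.920).

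Of the 13 mitochondrial mRNAs, 1 rose and 2 fell with drug in SMARCA4 shRNA cells, and 2 rose and 0 fell in control cells. Over all genes tested, 1.29% passed in each of these comparisons. Whether the mRNAs differ in this from the ribosomal protein genes was not tested. MT-CO1, a subunit of cytochrome oxidase, rose by 0.26 in SMARCA4 shRNA cells (SE 0.05, edgeR adjusted p = 0.00418) and by 0.61 in control cells (SE 0.05, adjusted p = 2.08e-09). MT-ND6 fell by 0.44 in SMARCA4 shRNA cells (SE 0.06, adjusted p = 2.62e-05). Of the cytosolic ribosomal protein genes, 0 of 79 passed in either.

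Whether the drug effect differed between SMARCA4 shRNA and control cells was tested as an interaction, the drug effect in SMARCA4 shRNA cells minus that in control cells. None of the 72 genes passed in edgeR, where 3 of 12602 genes (0.0238%) did, 0.00794% higher and 0.0159% lower, and 2 of the 72 had an unadjusted p under 0.05. MRPL21 had the smallest p, with a difference of 0.31 (SE 0.09, 95% interval 0.12 to 0.49, edgeR adjusted p = 0.539). It was 0.17 in SMARCA4 shRNA cells and -0.13 in control cells. MRPL35 differed by 0.24 (adjusted p = 0.914) and MRPL16 by -0.26 (adjusted p = 0.922). MRPS18B differed by -0.09 (adjusted p = 0.974), MRPL12 by -0.02 (adjusted p = 0.992), MRPS12 by 0.03 (adjusted p = 0.988), MRPS18C by -0.12 (adjusted p = 0.986), MRPS36 by 0.14 (adjusted p = 0.974) and MRPL36 by 0.09 (adjusted p = 0.988). For genes at or above 20 CPM, all intervals lay between -0.61 and 0.49, and over all 72 genes between -1.30 and 0.74.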

How the data were processed

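Per the labels, RNA of the 12 libraries was read with the Lexogen QuantSeq 3' kit. Tools per the submitters' processing notes were HISAT2, HTSeq and bcl2fastq 2.17.1.14, with build hg19. For strand setting and annotation, none is given in the sources used here. The deposited table, made by the authors, holds whole-number gene counts, not normalized. Columns were matched by name, and the 1 column without a treatment was taken as control_IbrVen replicate 1, the sample no other column named.

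Genes were kept by filterByExpr (minimum count 10, total 15), which removed 1218, and scaled by TMM. All 12 libraries entered 1 model in edgeR 4.0.16 (R 4.3.3) with a coefficient per group. Degrees of freedom were 8 residual and 22.5 prior, with a biological coefficient of variation of 5.69%. The test is two-sided. SE is the log2 fold change divided by the square root of F. With 3 against 3, an exact permutation test cannot go below 0.1. Alternatives used DESeq2 1.42.0, limma 3.58.1 and other scalings and filters. The script was tested on simulated data. Of the cell type markers, 1 is not reported here.

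The members, gene lists and naming rule were chosen with earlier results of these data known. The rule names the 10 called members per direction with the smallest adjusted p, or 3 where none passed, and MRPS18A, MRPS18B, MRPS18C, MRPS36, MRPL58, MRPL12, MRPS12 and MRPL36 throughout.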

Additional observations from a re-analysis of the deposited data

How the results depend on the processing

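Counts of genes lower with the SMARCA4 shRNA ranged from 16 to 24 with drug and from 17 to 32 in DMSO without 1 library. Counts higher then ranged from 0 to 1 with drug and from 0 to 2 in DMSO. Shares of all genes called in these fits were not tallied. Median log2 fold changes then ranged from -0.18 to -0.11 with drug and from -0.18 to -0.12 in DMSO. The drug medians ranged from -0.0082 to 0.039 in SMARCA4 shRNA cells and from -0.023 to 0.019 in control cells, and the interaction median from -0.014 to 0.059. Leaving out 1 library, genes lower in control cells with drug numbered 0 to 1.

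Library totals gave 13 lower and 2 higher with drug (MRPL34 and MRPS14) and a median of -0.050. The drug median in SMARCA4 shRNA cells became 0.062 and the interaction median 0.076. Signs turned, all uncalled, for the drug effect in SMARCA4 shRNA cells of MRPS18B (0.0098), MRPS12 (0.014) and MRPL36 (0.031), and for the interaction of MRPL12 (0.043). With limma-voom they turned for MRPL36 between shRNAs with drug (-0.0036) and the interaction of MRPL12 (0.011). A fit of the 2 groups alone called 1 gene higher in DMSO, MRPL19. The cause was not tested, and the shares of all genes called in these fits were not tallied.

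Leaving out 1 library turned the sign of some uncalled values. Between shRNAs, MRPL36 ranged from -0.090 to 0.17 with drug and from -0.20 to 0.011 in DMSO, and MRPS36 from -0.081 to 0.13 with drug. For drug over DMSO in SMARCA4 shRNA cells, MRPL36 ranged from -0.11 to 0.16, MRPS12 from -0.060 to 0.014, MRPS18B from -0.059 to 1.9e-05, MRPS18C from -0.020 to 0.11 and MRPS36 from -0.012 to 0.20. In control cells MRPL12 ranged from -0.30 to 0.064 and MRPS36 from -0.077 to 0.012. Interaction values ranged from -0.16 to 0.21 for MRPL12, from -0.019 to 0.25 for MRPL36 and from -0.0049 to 0.086 for MRPS12.

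Genes lower in both comparisons numbered 20 with RLE, 10 with library totals, 17 with DESeq2, 20 with limma-voom and 13 to 21 without 1 library. With replicate number as a block, 23 were lower with drug and 29 in DMSO, where MRPL2 was at -0.35 (edgeR adjusted p = 0.057). For none of these alternatives was the share of all genes called tallied. Whether same-numbered libraries were handled together is not known. After group means were removed, 0 of 18 same-numbered pairs had a correlation over 0.1. In 14 of 36 cases a library correlated best with its own number among the 3 libraries of another group. This cannot exclude a shared batch, since an effect on few genes would barely move a correlation over all genes. Depth limits MRPS24, which had as few as 9 counts in a library.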
